A study of Rattus norvegicus with 64 samples.

Results

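Bladder walls rebuilt on BAM carrying ASCs and sampled at 7 days were compared, gene by gene, with walls rebuilt on BAM only and sampled at 30 days, over 8 arrays of each group and 16 of the 64 arrays of the series. BAM is bladder acellular matrix, the bladder wall left after its cells are removed, and ASCs are mesenchymal stromal cells isolated from retroperitoneal adipose tissue of male Wistar rats and grown to the third passage, then cultured on the matrix for 7 days before surgery. All rats of both groups were male Wistar rats that underwent hemicystectomy and augmentation with a graft, and each array held total RNA of the reconstructed wall of 1 rat. The rats with BAM+ASCs were sacrificed after 7 days and the rats with BAM only after 30 days. The ages of the operated rats are not given in the sources used here. The comparison answers how far the transcriptome of a seeded graft at 7 days was already that of an unseeded graft at 30 days. The groups differ in both the cells seeded and the time after surgery, so each difference holds both. BAM only at 7 days (8 arrays) is set beside them where it shows on which side of the later level the seeded graft lay.

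A healing bladder graft is first entered by neutrophils and macrophages, which clear debris and release chemokines. Fibroblasts and new vessels then fill it with a provisional matrix that is later replaced by fibrillar collagen and elastic fibers. Urothelium, the epithelium that seals the lumen with uroplakin plaques, spreads over the surface early, and smooth muscle grows in from the margins last. Because whole walls were measured, fewer cells of a type and less RNA per cell cannot be told apart.

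Levels are log2 processed signals relative to the 75th percentile of the array, and all differences are on this log2 scale, with 1 probe per gene. Between 73.3% and 77.9% of gene spots were well above background on the 16 arrays, and the median Pearson r between replicate arrays, over probes, was 0.986 with ASCs and 0.985 without. No slide held more than 1 group, so slide and group cannot be told apart, while both slides carried the same scan date. BAM replicate 7 at 30 days stood apart by high neutrophil and B cell genes and had the lowest 75th percentile of signal (1009, against 1325 to 1614 on the other 7 arrays of its group). BAM+ASCs replicate 3 at 7 days stood apart by low urothelial genes. The defining markers of urothelium and smooth muscle were present in both groups. The median level of uroplakin Upk1b was 5.00 with ASCs and 4.56 without, and that of desmin (Des) was 2.87 and 3.34.

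Of 20680 probes tested, 2485 were DEGs, with an adjusted p below 0.01 in limma and a fold change over 1.5. In BAM+ASCs at 7 days 751 probes (3.63%) were higher and 1734 (8.38%) were lower than in BAM at 30 days. After quantile normalization 771 were higher and 1045 lower, so that 42.5% of DEGs were higher in place of 30.2%. A further 8459 probes (40.9%) lay within 1.5-fold, which means that the 95% interval of the difference lay wholly inside 1.5-fold in both directions and that the probe was saturated on none of the 16 arrays. Over the 11553 named genes 512 (4.43%) were higher, 779 (6.74%) were lower and 5178 (44.8%) lay within 1.5-fold. The median difference of all named genes was -0.05, and the arrays of the groups did not overlap for 15.5% of them. In BAM only at 7 days, set against the same arrays at 30 days, 777 genes were higher and 777 lower (6.73% each). Comparisons with BAM at 7 days cover the genes chosen on the 16 arrays, so genes seen only in BAM at 7 days are left out.

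Among the 36 lists the genes of the mitochondrial respiratory chain had the largest share within 1.5-fold, with 53 of 72 tested genes (73.6%). Of the 14 reference genes, 7 lay within 1.5-fold (50.0%). In each of the other 34 lists the share within 1.5-fold was below that of all named genes, with 8 of 20 genes for TGF-β ligands and receptors, 8 of 25 for hypoxia and glycolysis, 8 of 26 (30.8%) for cholesterol synthesis and 8 of 32 (25.0%) for the cell cycle. A saturated gene could not count as within 1.5-fold. For the ribosomal protein genes, 70 of 83 saturated, the low share (10.8%) therefore does not show a mismatch. Neutrophil genes, basement membrane, fibrillar collagen and elastic fiber genes and endothelial genes held DEGs that were mostly or only higher than at day 30. Matrix metalloproteinases and their inhibitors went both ways, with 6 higher and 4 lower. Immediate early genes, contractile genes of smooth muscle and stromal surface markers held DEGs that were mostly or only lower. Urothelial plaque genes, macrophage genes, T cell genes and mast cell genes held no DEG in limma at an adjusted p below 0.01. Only 1 of their genes, a T cell gene, lay within 1.5-fold. In this fit, which used all 64 arrays, the levels of the others were therefore neither told apart nor shown to match.

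**Figure D1:**
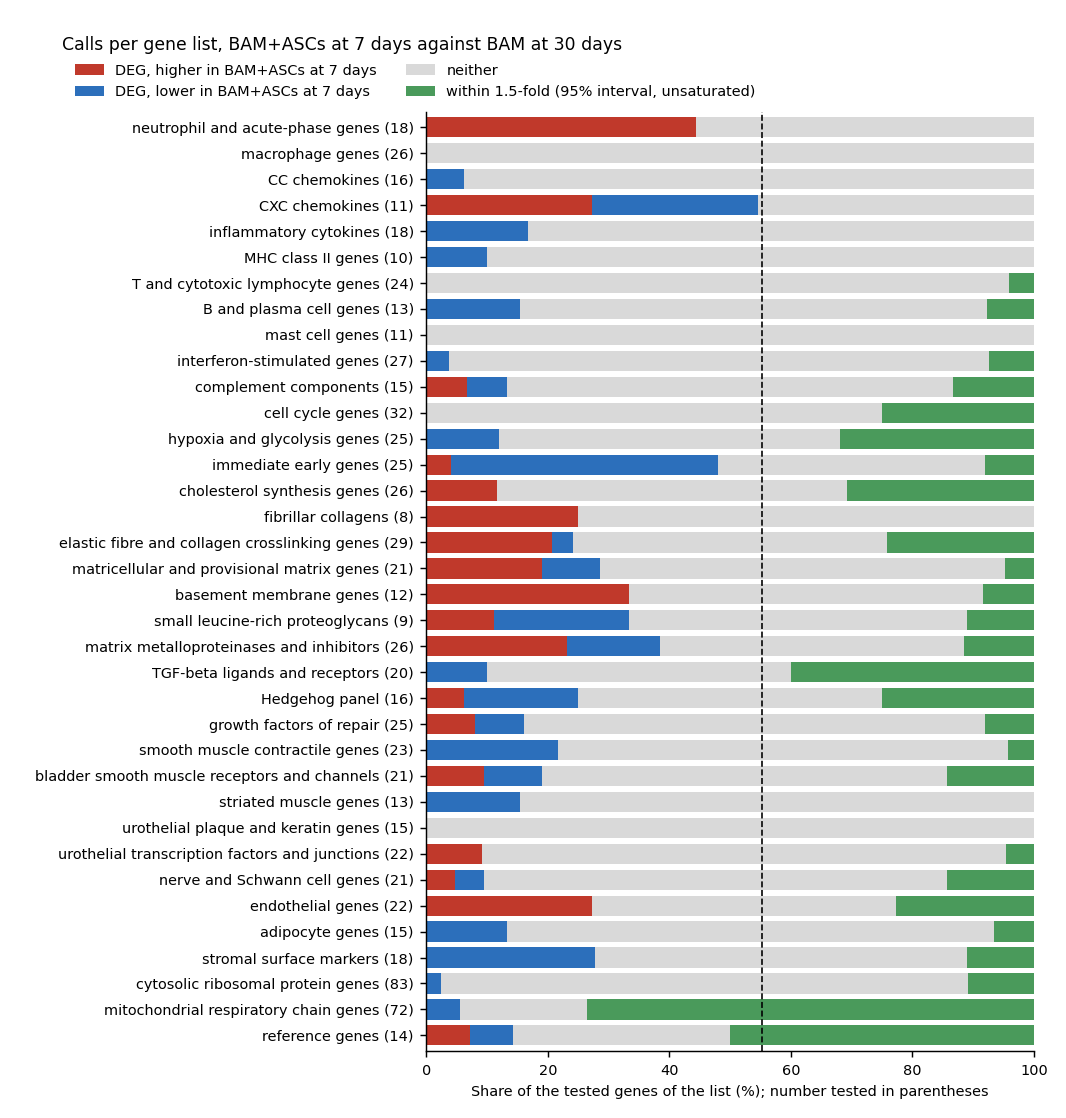
Share of the tested genes of each of 36 gene lists (horizontal axis, percent, with the number tested in parentheses) that were DEGs and higher (red) or lower (blue) in BAM+ASCs at 7 days than in BAM at 30 days, neither (grey), or within 1.5-fold by the 95% interval and unsaturated (green). The dashed line marks where the green bar would start at the share of all named genes (44.8%), and only the mitochondrial list (73.6%) and the reference genes (50.0%) reach past it. Saturated genes are never green, which concerns 70 of the 83 ribosomal protein genes.

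Among neutrophil genes 8 of 18 tested (21 on the array) were higher than at day 30 and none was lower, where 4.43% of all named genes were higher. Of these 8, Np4 and Mmp8 passed the filter on dim probes only through the seeded arrays, where they were high. Of the 15 genes well above background on all 16 arrays 6 were higher, with a median difference of 0.79 against -0.05 over all named genes. S100a8, a subunit of calprotectin stored in neutrophils, ranged from 1.65 to 3.61 with a median of 2.15 in BAM+ASCs at 7 days and from -2.59 to 0.73 with a median of -1.94 in BAM at 30 days. Every seeded array was above every unseeded one. The SE of each difference, here and below, is from the limma fit of all 64 arrays, not from the spread of these 16 alone. The difference of S100a8 was 4.18 ± 0.80 (SE) with an adjusted p of 4.4e-05, which is an 18.1-fold higher level. Its partner S100a9 was 4.09 ± 0.78 higher (adjusted p = 3.9e-05). The neutrophil defensin Np4 ranged from -4.05 to 0.57 (median -1.30) with ASCs and from -8.24 to -3.06 (median -7.47) without. It was well above background on all 8 seeded arrays and on 1 unseeded array, BAM replicate 7, the highest of its group. The decoy interleukin-1 receptor Il1r2 was 2.81 ± 0.42 higher, and the chemokine receptor Cxcr2 was 2.60 ± 0.45 higher (adjusted p = 5.2e-07 and 6.8e-06). The collagenase Mmp8 was well above background on all seeded and on no unseeded array and was at least 3.29-fold higher, with an adjusted p of 8.4e-08.

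The neutrophil list lay between the unseeded levels of 7 and 30 days. Its mean level per array ran from -1.59 to -0.39 (median -1.11) in BAM+ASCs at 7 days and from -2.81 to -1.25 (median -2.54) in BAM at 30 days, and it was -0.01 ± 0.66 (SD, n = 8) in BAM at 7 days. At 30 days 7 of the 8 unseeded arrays were below every seeded array, and replicate 7 was the exception. Without that replicate the list still held 8 higher DEGs. BAM at 7 days, set against BAM at 30 days, held 12 higher genes with a median difference of 2.43, and BAM+ASCs against BAM at 7 days held 7 lower and 1 higher, Np4, where 5.07% of all named genes were lower and 3.70% higher. Both of these comparisons share arrays with the first. Csf3r, the receptor of granulocyte colony-stimulating factor, was 1.44 ± 0.36 above BAM at 30 days and differed by -1.81 from BAM at 7 days (adjusted p = 0.00149 and 0.000149). After quantile normalization Csf3r (adjusted p = 0.0121) and the cathelicidin Camp (adjusted p = 0.0101) were not DEGs, and the other 6 calls were kept.

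CXC chemokines went both ways. Of 11 CXC chemokines tested 3 were higher and 3 lower, where 4.43% of all named genes were higher and 6.74% lower. Cxcl6, a neutrophil attractant, ranged from -2.76 to -0.01 (median -1.50) with ASCs and from -5.12 to -2.84 (median -4.07) without, with no overlap between the groups, and the difference was 2.61 ± 0.48 (adjusted p = 2.1e-05). Cxcl13, the B cell attractant, ran from -0.68 to 1.48 (median 0.75) against 2.77 to 4.42 (median 3.51), and fell by 2.90 on the log2 scale (SE 0.66, adjusted p = 0.000437). All 8 seeded arrays lay below all unseeded arrays. Cxcl13 was near its seeded level in BAM at 7 days as well, with a mean of 0.78, and BAM+ASCs and BAM differed by -0.20 at 7 days. The platelet chemokine Ppbp was 1.27 ± 0.31 higher, but it was well above background on 1 unseeded array only, and after normexp background correction it was not a DEG (0.28, adjusted p = 0.25). Cxcl14 (-1.29 ± 0.27) and Cxcl16 (-0.87 ± 0.16) were lower. Cxcl2 was 2.28 ± 0.66 higher (adjusted p = 0.00562), but the call was lost when any 1 of 9 arrays was left out, with an adjusted p between 0.0105 and 0.0244. Among 16 CC chemokines Ccl4 alone passed the test, at -1.58 ± 0.48 with an adjusted p of 0.0084, and leaving out any 1 of 12 arrays ended its call (0.0101 to 0.0225). Of 18 cytokines 3 were lower, among them Il12b, which was well above background on 4 of the 8 seeded arrays and whose call was lost when any 1 of 8 arrays was left out (adjusted p up to 0.0282). Il11, an interleukin-6 family member, was lower on every seeded array than on any unseeded one (-1.46 ± 0.16, adjusted p = 8.9e-11). Macrophage growth factor Csf1 fell by 1.39 (SE 0.26, adjusted p = 2.7e-05). For Il1b the difference was 1.09 with an interval from -0.00 to 2.19 and an adjusted p of 0.12.

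Macrophage, T cell and mast cell genes held no DEG among 26, 24 and 11 tested in the fit of all 64 arrays. At an unadjusted p below 0.05 there were 6, 3 and 1 such genes. Cd68, a lysosomal marker of macrophages, ranged from 3.47 to 4.20 (median 3.95) with ASCs and from 4.26 to 5.30 (median 5.15) without, so that the groups did not overlap. The difference of -1.10 ± 0.46 had an adjusted p of 0.0593 in limma. This SE carries the spread of all 64 arrays, while the SD of Cd68 was 0.28 with ASCs and 0.36 without. B cell genes were lower in 2 of 13 cases, where 6.74% of all named genes were lower. Among these 2 was Cd79b (-2.06 ± 0.59), a signaling subunit of the B cell receptor. BAM replicate 7 at 30 days was far above its group in this list (0.62 against -1.73 to -0.63), and without it the list held no DEG (Cd79b -1.65, adjusted p = 0.0236). Of 10 MHC class II and costimulation genes Cd86 alone was lower, and not without BAM+ASCs replicate 3 (-0.72, adjusted p = 0.0101). Of 15 complement genes 1 was higher, 1 was lower and 2 lay within 1.5-fold, against 4.43%, 6.74% and 44.8% of all named genes. The median difference of the 15 was -0.14. Complement factor I (Cfi) was 1.70 ± 0.29 higher and lay above every unseeded array on all 8 seeded ones. Complement factor B (Cfb) was -1.40 ± 0.42 from day 30 (adjusted p = 0.00677), a call lost when any 1 of 9 arrays was left out (adjusted p from 0.0111 to 0.0205) and after quantile normalization. Of the 27 interferon-stimulated genes 2 lay within 1.5-fold and only Mx2 was a DEG (-0.81 ± 0.23), a call lost when any 1 of 4 arrays was left out (adjusted p from 0.0118 to 0.026).

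**Figure D2:**
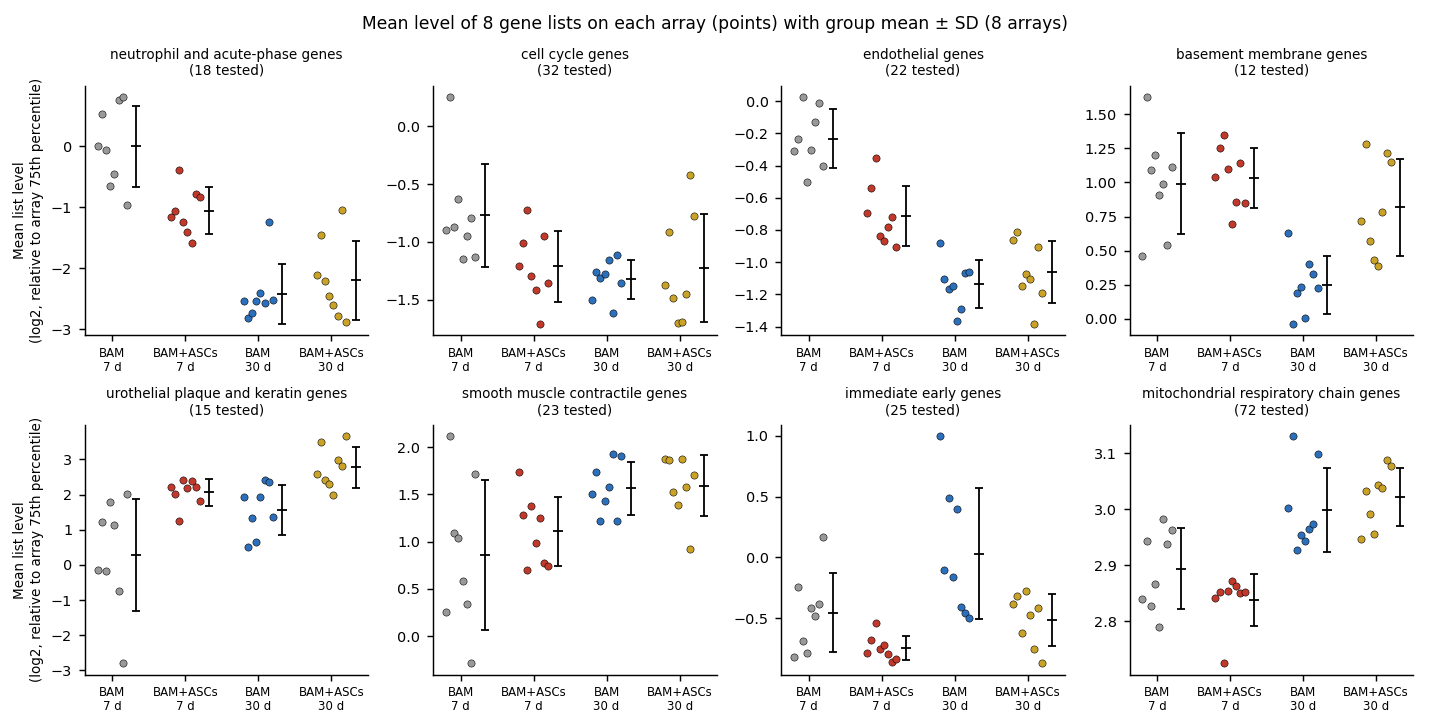
Mean level of the tested genes of 8 lists on each array (points) with the group mean and SD (8 arrays) to the right of them, in BAM and BAM+ASCs at 7 and 30 days, on the log2 scale relative to the 75th percentile of the array. Neutrophil and endothelial levels of BAM+ASCs at 7 days lay between the unseeded levels of 7 and 30 days, basement membrane levels lay near those of BAM at 7 days, and the narrow range of the mitochondrial list (2.73 to 3.13 over the 16 arrays compared) still left all 8 seeded arrays below the unseeded ones.

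Immediate early genes are induced within minutes of a stimulus and code mostly for transcription factors and their brakes. Of 25 tested 11 were lower than at day 30, where 6.74% of all named genes were lower, 1 was higher and 2 lay within 1.5-fold. The median difference was -0.79, and all 8 seeded arrays had a lower mean level (-0.86 to -0.54) than any unseeded array at 30 days (-0.50 to 0.99). Zfp36, which binds AU-rich elements and speeds the decay of cytokine mRNA, ranged from -4.53 to -2.95 (median -4.13) against -2.77 to -0.41 (median -2.04). It fell by 2.08 on the log2 scale (SE 0.34, adjusted p = 2.9e-06) with no overlap. The stress factor Atf3 fell by 1.69 (SE 0.40, adjusted p = 0.000801), the MAP kinase phosphatase Dusp1 by 1.67 (SE 0.36), Maff by 1.30, the endothelial factor Klf2 by 1.17, Jund by 0.90 and Klf6 by 0.73. Fosb went the other way, at 1.00 ± 0.15 above day 30 (adjusted p = 4.9e-07). The calls of Egr1, Nr4a2 and Btg2 ended when any 1 of 4, 5 and 11 arrays was left out (adjusted p up to 0.0178, 0.0229 and 0.0367), and that of Klf4 ended without BAM replicate 1 (-0.63, adjusted p = 0.0108). The other 7 lower genes kept their call whichever array was left out and under 3 other scalings. In BAM+ASCs at 30 days the mean level of the list was -0.51 ± 0.21, and in BAM at 7 days it was -0.46 ± 0.32 (SD, n = 8 each). Fos was not told apart between the groups, with a difference of -0.25 and an interval from -1.19 to 0.69.

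Several immediate early genes are induced through CArG boxes, the sites of serum response factor, so their promoters were read from RefSeq in the window from 250 bases before to 50 after the start site (GRCr8). The table held such a window for 9 of the 11 lower genes, and 3 of the windows (Zfp36, Egr1 and Klf6) carried a CArG box, which is present in 1.64% of all 33469 promoters of this length. The windows of Dusp1, Maff, Jund, Btg2, Klf4 and Nr4a2 held none. The windows of Zfp36 (chr1:92799059-92799358, minus strand) and Klf6 (chr17:69458429-69458728, minus strand) are shown because they hold the motif at different distances, starting at -32 and at -201 from the start site, with the CArG box in capitals.
Zfp36: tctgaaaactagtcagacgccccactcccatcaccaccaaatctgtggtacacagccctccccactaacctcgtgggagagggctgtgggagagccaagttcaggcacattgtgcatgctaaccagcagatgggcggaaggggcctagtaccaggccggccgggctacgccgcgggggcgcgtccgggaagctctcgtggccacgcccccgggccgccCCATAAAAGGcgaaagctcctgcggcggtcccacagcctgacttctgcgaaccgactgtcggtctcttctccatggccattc
Klf6: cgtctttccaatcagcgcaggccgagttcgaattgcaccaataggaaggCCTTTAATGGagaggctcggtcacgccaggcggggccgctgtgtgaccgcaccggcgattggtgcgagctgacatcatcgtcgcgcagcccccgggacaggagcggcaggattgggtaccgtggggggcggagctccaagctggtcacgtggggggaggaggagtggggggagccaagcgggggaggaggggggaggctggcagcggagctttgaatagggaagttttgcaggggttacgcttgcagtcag
A match describes the letters of the window only. Of the smooth muscle genes that were lower, 3 of 5 had a window (Synm, Acta2 and Smtn), and none carried the motif. The C/EBP motif TTGCNNAA, searched on both strands, was in 2 of 6 windows of the higher neutrophil genes (Np4 and Mmp8) against 10.6% of all promoters. The sterol regulatory element TCACNCCAC was in neither window of the higher cholesterol genes, against 1.12% of all.

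Cell cycle genes had no DEG in limma among 32 tested (3 at an unadjusted p below 0.05, Mcm3, Tk1 and E2f1), and 8 lay within 1.5-fold, among them the replication genes Mcm2, Mcm4, Mcm6 and Pcna and the mitotic kinase Aurka. The proliferation marker Mki67 ranged from 0.06 to 1.02 (median 0.49) with ASCs and from 0.19 to 0.88 (median 0.68) without. The groups overlapped fully, and the difference was -0.04 with an interval from -0.60 to 0.52, just wider than 1.5-fold. The median of the list was 0.07. That of BAM at 7 days against BAM at 30 days was 0.59 with 5 higher genes, where 6.73% of all named genes were higher. After normexp background correction 16 of the 32 lay within 1.5-fold in place of 8. Of 25 genes of hypoxia and glycolysis 3 were lower, none was higher and 8 lay within 1.5-fold, with a median difference of -0.35. Over all named genes 6.74% were lower. At an unadjusted p below 0.05 there were 17, and 7 of the 8 seeded arrays had a mean level below every unseeded array. Of the glycolytic enzymes Aldoa (-0.01), Hk1 (-0.05), Pfkm (-0.12), Eno1 (0.17), Gapdh (-0.27) and Pkm (-0.31) lay within 1.5-fold, although another probe of Pkm was lower. Bnip3, a mitophagy receptor induced in hypoxia, was lower at -1.09 ± 0.18 (adjusted p = 4.5e-06), as were the kinases Pfkfb3 (-0.91 ± 0.20) and Pfkl (-0.65 ± 0.11). Another probe of Pfkl lay within 1.5-fold, and another of Pfkfb3 was not called. Pfkfb3 was not a DEG after quantile normalization (-0.78, adjusted p = 0.0117), nor was Pfkl after normexp background correction (-0.50, under 1.5-fold). In cholesterol synthesis 8 of 26 genes lay within 1.5-fold and 3 were higher, against 44.8% and 4.43% of all named genes. Lanosterol synthase (Lss) was 0.67 ± 0.16 higher. Farnesyl diphosphate synthase (Fdps) was 0.85 ± 0.25 higher, a call lost when any 1 of 5 arrays was left out (adjusted p from 0.0103 to 0.0205).

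Mitochondrial genes lay close to day 30 and a little below it. The mean level of the 72 genes ran from 2.73 to 2.87 in BAM+ASCs at 7 days and from 2.93 to 3.13 in BAM at 30 days. All seeded arrays were below all unseeded ones, although the median difference over genes was only -0.12, and -0.02 after quantile normalization. The 4 DEGs, all lower, made up 5.56% of the list, where 6.74% of all named genes were lower. They were the subunits Cox7c (-0.81 ± 0.13), Uqcrq (-0.79 ± 0.14), Sdhc (-0.66 ± 0.12) and Cox6b2 (-0.66 ± 0.14), of which Sdhc fell just under 1.5-fold after quantile normalization (-0.58). Of the 83 ribosomal protein genes 70 were saturated on at least 1 array and give no exact level, and 9 of the other 13 lay within 1.5-fold. Among reference genes Hprt1 (0.02 ± 0.06), Tbp (0.01) and Gusb (0.02) lay within 1.5-fold, whereas the transferrin receptor Tfrc was 0.99 ± 0.26 higher and B2m, the light chain of MHC class I, fell by 0.78 (SE 0.20). B2m was saturated on 6 of the 16 arrays, and its call was lost without BAM+ASCs replicate 6 (-0.65, adjusted p = 0.0103).

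Of 29 elastic fiber and crosslinking genes 6 were higher than at day 30, 1 was lower and 7 lay within 1.5-fold, and another 15 were neither told apart nor shown to match. Over all named genes 4.43% were higher and 6.74% lower. Fbn2, a fibrillin of developing and healing microfibrils, ranged from -0.03 to 2.50 (median 1.10) in BAM+ASCs at 7 days and from -2.80 to -2.30 (median -2.62) in BAM at 30 days. No arrays overlapped, and the difference of 3.75 ± 0.34 (adjusted p = 4.2e-13) was a 13.5-fold higher level. In BAM at 7 days Fbn2 had a mean of 2.03, and BAM+ASCs and BAM differed there by -0.84 (adjusted p = 0.0643). Fbn1, the fibrillin of mature microfibrils, lay within 1.5-fold at 0.19. The microfibril proteins Mfap2 (1.22 ± 0.19) and Mfap4 (0.85 ± 0.21) and the elastin-binding Fbln5 (0.98 ± 0.19) and Emilin1 (0.70 ± 0.16) were higher, and Mfap5 (-0.88 ± 0.20) was lower. Ltbp3 was higher by 0.63, but not without BAM replicate 5 or 7 at 30 days (0.57 and 0.47, adjusted p = 0.0121 and 0.0216). Elastin itself (Eln) was not called, with a difference of 0.58 and an interval from 0.00 to 1.15.

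Of 8 fibrillar collagens tested 2 were higher, Col5a1 (0.99 ± 0.17), which starts fibril assembly, and Col11a1 (1.63 ± 0.39), the latter on 1 of its 3 probes. Col1a1 and Col3a1 were saturated and give no exact level. In the basement membrane 4 of 12 genes were higher and none was lower, against 4.43% and 6.74% of all named genes. All 8 seeded arrays had a higher mean level (0.69 to 1.35) than any unseeded array (-0.04 to 0.63). Col7a1, the anchoring fibril collagen, ranged from -0.19 to 0.51 (median 0.12) against -2.66 to -1.15 (median -1.69), without overlap, at 1.86 ± 0.31 (adjusted p = 4.05e-06). Col18a1 was 1.33 ± 0.23 and Col4a1 1.00 ± 0.18 higher, and both were lower than in BAM at 7 days (-0.78 and -0.75, adjusted p = 0.00875 and 0.00201). Agrn lay at the fold threshold (0.59 ± 0.13), and leaving out any 1 of 6 arrays moved it under 1.5-fold (0.54 to 0.58).

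Genes of the provisional matrix went both ways, with 4 of 21 higher and 2 lower, against 4.43% and 6.74% of all named genes. Cthrc1, a collagen triple helix protein of activated fibroblasts, ranged from 1.84 to 2.87 (median 2.32) with ASCs and from 0.56 to 1.20 (median 0.87) without, at 1.45 ± 0.20 higher (adjusted p = 8.1e-08). Vcan, a hyaluronan-binding proteoglycan, Thbs2 and Ccn4 were 1.21 ± 0.27, 1.18 ± 0.21 and 1.18 ± 0.19 higher. No arrays of the groups overlapped for any of these 4. Ccn5, the matricellular protein that restrains smooth muscle growth, ran from -2.84 to -1.67 (median -1.80) against -0.92 to 1.07 (median 0.29) and fell by 2.31 (SE 0.36, adjusted p = 1.2e-06). Its mean in BAM at 7 days was -2.04, and BAM+ASCs differed from it by -0.01. Among small proteoglycans decorin (Dcn) lay within 1.5-fold (-0.12 ± 0.14), lumican (Lum) was 0.73 ± 0.18 higher, and Prelp (-1.03 ± 0.17) and Omd (-1.23 ± 0.29) were lower. Of 26 metalloproteinases and inhibitors 6 were higher, 4 lower and 3 within 1.5-fold, against 4.43%, 6.74% and 44.8% of all named genes. Of these calls 4 higher and 4 lower ones were kept whichever array was left out and under 3 other scalings. Mmp14, the membrane-bound activator of Mmp2, was 0.99 ± 0.16 higher and Mmp2 0.68 ± 0.16 higher. The inhibitors fell apart, with Timp1 within 1.5-fold at -0.09 and Timp3 at -1.33 ± 0.19 (adjusted p = 3.0e-07).

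**Figure D3:**
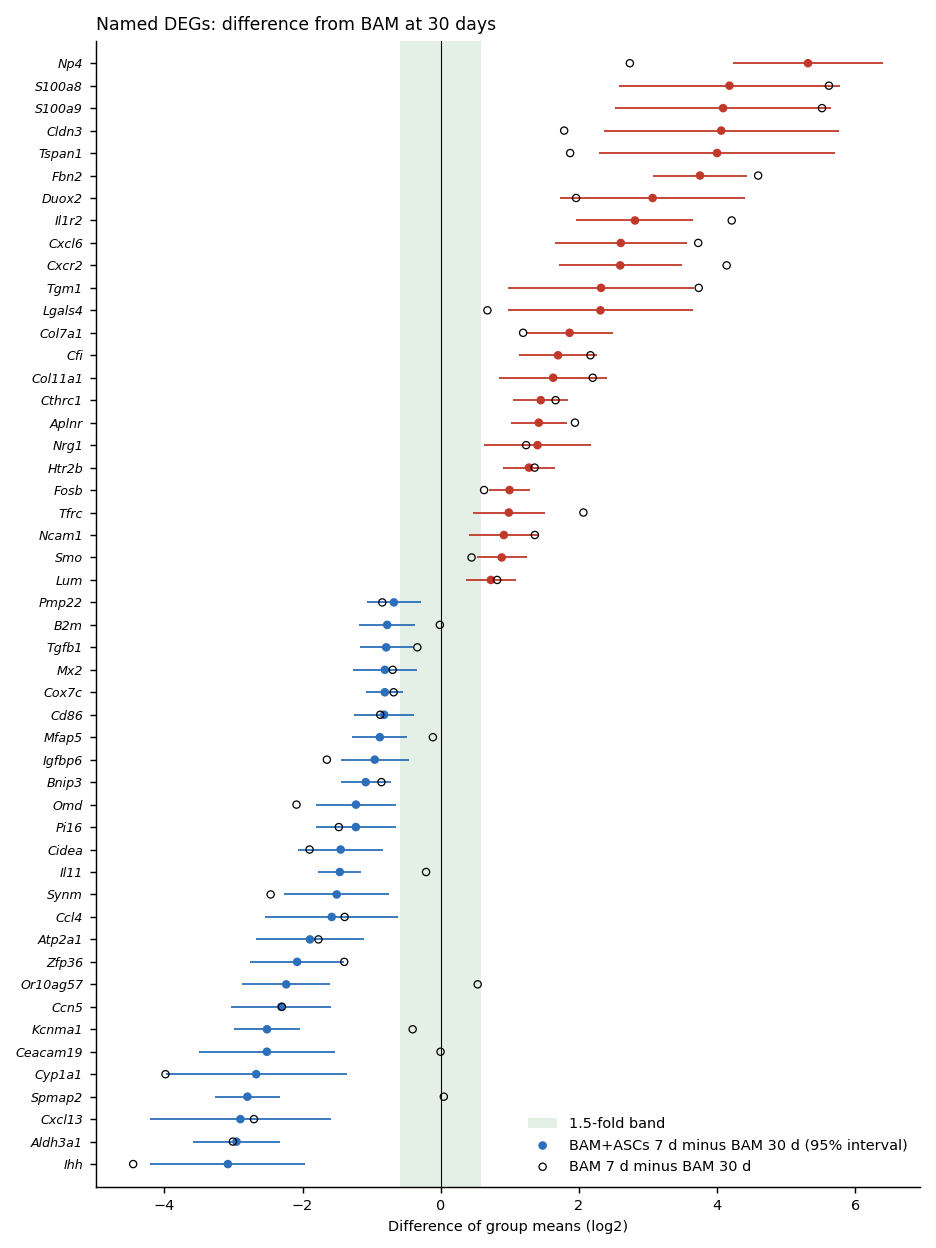
Difference of group means (horizontal axis, log2) of BAM+ASCs at 7 days from BAM at 30 days for DEGs named in the text, with the 95% interval, red where higher and blue where lower, beside the difference of BAM at 7 days from the same arrays (open circles). The green band is 1.5-fold in both directions. For Fbn2, Col11a1, Ccn5, Aldh3a1 and Cxcl13 both 7-day groups lay far from day 30, whereas for Kcnma1, Spmap2, Ceacam19, Or10ag57 and Il11 the open circle lies within the band and the seeded graft does not.

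Of 20 TGF-β ligands, receptors and transducers tested, 8 lay within 1.5-fold (40%, against 44.8% of all named genes), including the signal transducers Smad2 (0.24), Smad4 (0.03) and the inhibitor Smad7 (0.03). Of the 20, 2 were lower and none was higher, against 6.74% and 4.43% of all named genes. Tgfb1 itself ranged from -1.96 to -1.47 (median -1.83) against -1.45 to -0.70 (median -0.90), without overlap, and fell by 0.79 (SE 0.19, adjusted p = 0.000985). Its receptor Tgfbr2 fell by 0.78 (SE 0.16), with both of its probes lower.

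In the Hedgehog pathway secreted ligands bind the receptor Ptch1, which releases Smo and activates the Gli transcription factors. Of the 16 panel genes tested (22 on the array) 4 lay within 1.5-fold, 3 were lower and 1 was higher. Over all named genes 44.8% lay within 1.5-fold, 6.74% were lower and 4.43% were higher. The ligand Ihh ranged from -5.79 to -2.10 (median -4.10) with ASCs and from -3.35 to -0.30 (median -0.90) without, and 6 of 8 seeded arrays lay below all unseeded ones. It fell by 3.08 on the log2 scale (SE 0.56, adjusted p = 1.9e-05). In BAM at 7 days Ihh had a mean of -5.64, and BAM+ASCs lay 1.37 above it (adjusted p = 0.0684). The target and effector Gli1 lay within 1.5-fold (-0.02 ± 0.24), as did Bmp4 (-0.09 ± 0.23), a mesenchymal target in the bladder. Both were lower in BAM at 7 days than in BAM at 30 days by value (-0.78 and -0.69) without passing the test. Zic2 fell by 2.07 (SE 0.21, adjusted p = 2.15e-11) and was lower than in BAM at 7 days too (-2.27). Wnt7b fell by 1.25 (SE 0.31, adjusted p = 0.0015), but was not a DEG after normexp background correction (-0.61, adjusted p = 0.0245). Smo was 0.88 ± 0.18 higher (adjusted p = 0.000108), but not a DEG after quantile normalization (adjusted p = 0.0264). Ptch1 was not called, at -0.88 ± 0.31 with an adjusted p of 0.0223. Among 25 growth factors of repair 2 were lower, where 6.74% of all named genes were lower. Of these 2, Igfbp6 (-0.96 ± 0.25) was not a DEG in a fit of the 16 arrays alone. The epithelial growth factor Tgfa lay within 1.5-fold at -0.09, with another probe higher. Nrg1 and Igf1 were higher by 1.40 and 0.60, with calls that ended when any 1 of 2 and 7 arrays was left out (adjusted p up to 0.012 and 0.0194).

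Of 23 contractile genes of smooth muscle 5 were lower than at day 30, where 6.74% of all named genes were lower, none was higher and 1 lay within 1.5-fold. Another 17 were neither told apart nor shown to match, and the median difference was -0.39. Only 2 of the 5 calls, those of Synm and Acta2, were kept whichever array was left out and under 3 other scalings. The intermediate filament protein synemin (Synm) ranged from 1.22 to 3.11 (median 2.12) in BAM+ASCs at 7 days and from 3.03 to 4.15 (median 3.61) in BAM at 30 days. Only 1 seeded array reached into the unseeded range, and the difference was -1.51 ± 0.38 (adjusted p = 0.0015). Myocd, the coactivator that switches on contractile genes, fell by 1.26 (SE 0.31), but was not a DEG after normexp background correction (-0.76, adjusted p = 0.0125). Smooth muscle actin (Acta2) ran from 0.43 to 1.5 (median 0.86) against 1.66 to 2.41 (median 1.96), without overlap, and fell by 1.10 (SE 0.25, adjusted p = 0.000497). The calls of Smtn and Lmod1 were lost when any 1 of 8 and 13 arrays was left out (adjusted p from 0.0121 to 0.0197 and from 0.01 to 0.0205). Smooth muscle myosin (Myh11) was -0.84 ± 0.30 from day 30 (adjusted p = 0.0251) and 1.02 higher than in BAM at 7 days (adjusted p = 0.00933). BAM at 7 days held 7 lower genes against BAM at 30 days, where 6.73% of all named genes were lower. Other probes of Synm, Smtn and Lmod1 were not called.

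Receptors and channels of bladder muscle held 2 higher and 2 lower genes among 21, where 4.43% of all named genes were higher and 6.74% lower. Kcnma1, the large-conductance calcium-activated potassium channel that dampens detrusor contraction, ranged from -3.13 to -2.19 (median -2.52) with ASCs and from -0.47 to 0.68 (median -0.03) without. All seeded arrays were far below all unseeded ones, at -2.52 ± 0.24 (adjusted p = 1.5e-12), a 5.72-fold lower level. BAM at 7 days had a mean of -0.42, and BAM+ASCs differed from it by -2.11 (adjusted p = 7.4e-10). Of the 3 probes for Kcnma1, 2 were lower and 1 was not called. The calcium channel Cacna1h fell by 1.37 (SE 0.37) and the serotonin receptor Htr2b was 1.28 ± 0.19 higher. The muscarinic receptor Chrm3, which drives voiding, was not told apart (-0.50 ± 0.34, adjusted p = 0.267). Kcnj8 lay at the threshold (0.60 ± 0.18), and leaving out any 1 of 13 arrays ended its call (adjusted p up to 0.0232). Of 13 genes of striated muscle Atp2a1 (-1.89 ± 0.39) and Myoz1 (-1.06 ± 0.22) were lower.

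**Figure D4:**
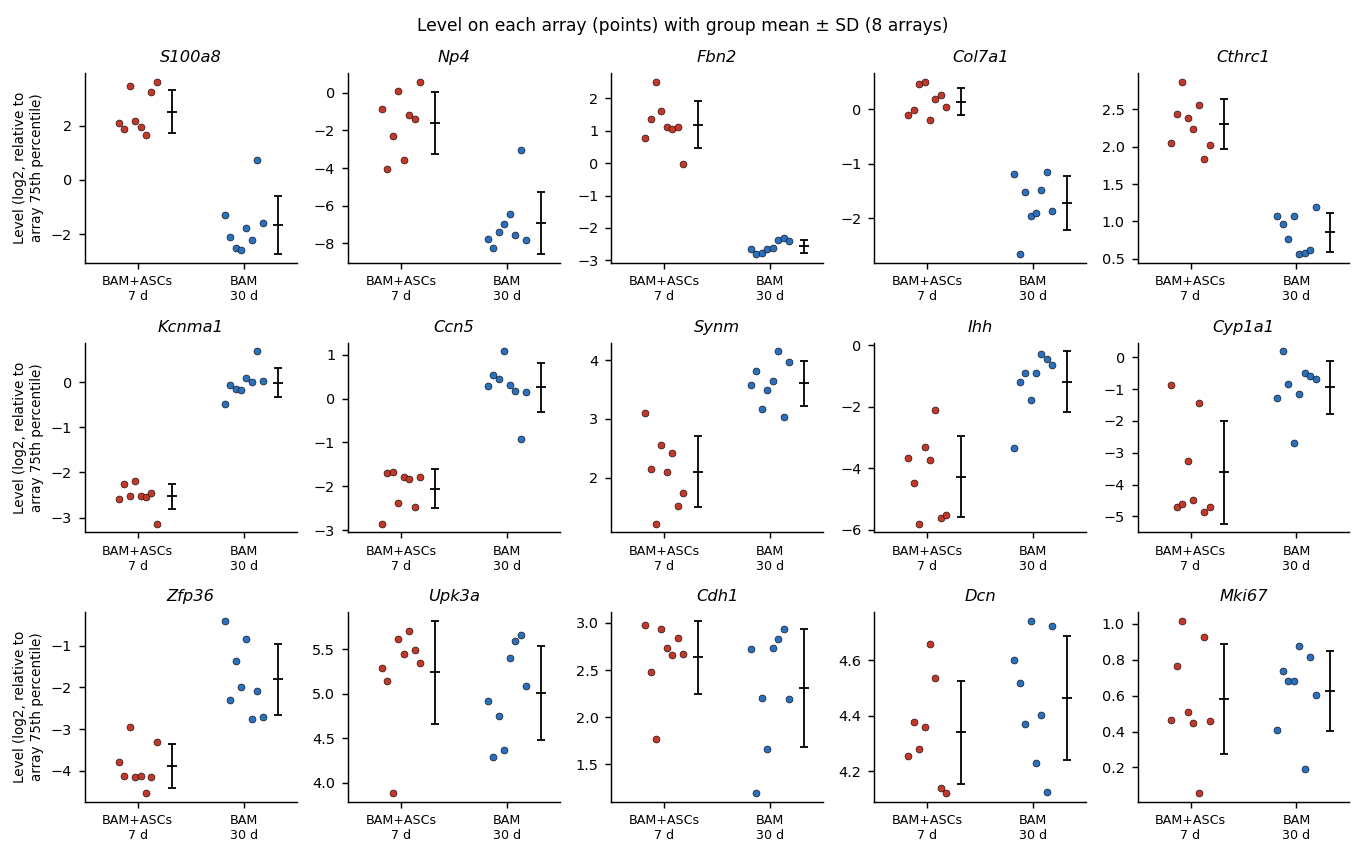
Level on each of the 8 arrays a group (points) with mean and SD for 15 genes, on the log2 scale relative to the 75th percentile of the array, in BAM+ASCs at 7 days (red) and BAM at 30 days (blue). S100a8, Fbn2, Col7a1 and Cthrc1 were higher without overlap and Kcnma1, Ccn5 and Zfp36 lower without overlap, Np4 was higher and Ihh, Synm and Cyp1a1 were lower with some overlap, and Upk3a, Cdh1, Dcn and Mki67 overlapped.

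The distance of urothelial genes from day 30 was not resolved. None of the 15 plaque and keratin genes was a DEG and none was shown to lie within 1.5-fold, with a median difference of 0.47. In a fit of the 16 arrays alone 3 were higher and 1 was lower. At an unadjusted p below 0.05 there were 4, Krt20, Krt4, Krt14 and Krt17. The mean level of the list ran from 1.24 to 2.40 (median 2.20) with ASCs and from 0.50 to 2.41 (median 1.64) without. The uroplakin Upk3a ranged from 3.89 to 5.71 (median 5.40) and from 4.29 to 5.66 (median 5.01), a difference of 0.23 with an interval from -0.71 to 1.17, and was saturated on 3 seeded arrays. The lowest seeded value of both came from BAM+ASCs replicate 3. In BAM at 7 days the mean level of the list varied widely, from -2.79 to 2.01 (median 0.50). Replicates 4 and 8 of that group (1.79 and 2.01) lay inside the range with ASCs. Against BAM at 7 days, 11 of the 15 genes were higher in BAM+ASCs, with a median difference of 1.85, where 3.70% of all named genes were higher. Upk3a was 2.28, Upk1a 2.36 and Upk2 2.87 higher (adjusted p = 0.00023, 6.4e-05 and 0.000166). Krt20, the keratin of umbrella cells, lay below day 30 by value (-1.77 ± 0.56, adjusted p = 0.0115) and was 0.02 from BAM at 7 days (interval -1.10 to 1.15). By value Upk1a (-0.42) and Upk2 (-1.09) lay below day 30 too.

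Junction and transcription factor genes of the urothelium held 2 DEGs among 22, both higher, and 1 among the 20 genes well above background on all 16 arrays. Over all named genes 4.43% were higher. Claudin 3 (Cldn3) ranged from -3.40 to 1.73 (median -0.60) in BAM+ASCs at 7 days and from -7.81 to -3.25 (median -4.35) in BAM at 30 days, where 6 of 8 arrays were well above background. It passed the filter on dim probes only through the seeded arrays, and 1 of these reached into the unseeded range. The group means differed by 4.06, with the 2 dim arrays included in the unseeded mean. Tjp3 was 1.16 ± 0.34 higher, a call lost when any 1 of 8 arrays was left out (adjusted p from 0.0102 to 0.0185). Foxa1, which specifies urothelium, lay within 1.5-fold (0.04 ± 0.22). E-cadherin (Cdh1) overlapped between the groups (0.32 ± 0.42). Against BAM at 7 days 16 of the 22 were higher, where 3.70% of all named genes were higher. The mean level of these 22 genes ran from -3.79 to -0.77 in BAM at 7 days and from -0.98 to -0.25 in BAM+ASCs, so the groups overlapped. Further epithelial genes stood among the 10 largest rises over day 30, namely the tetraspanin Tspan1 (4.00 ± 0.86, adjusted p = 0.000215) and the oxidase Duox2 (3.07 ± 0.67, adjusted p = 0.000279), both without overlap. Transglutaminase 1 (Tgm1) and galectin 4 (Lgals4) were 2.32 and 2.31 higher, and their calls were lost when any 1 of 8 and 6 arrays was left out (adjusted p up to 0.0188 and 0.0202). From BAM at 7 days BAM+ASCs differed by 2.13 for Tspan1, 1.11 for Duox2 and 1.64 for Lgals4, but by -1.41 for Tgm1. None of these 4 differences passed the test. On BAM+ASCs replicate 3, the array low in urothelial genes, Tspan1 (4.55) and Tgm1 (-0.57) were the highest of their group. Duox2 (-0.05) was the lowest of its group there, and Lgals4 (1.93) was neither. Which cells of the wall expressed these genes was not tested.

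Of 22 endothelial genes 6 were higher than at day 30, where 4.43% of all named genes were higher, and none was lower. Another 11 were neither told apart nor shown to match, and 4 of the 6 calls were kept whichever array was left out and under 3 other scalings. The 5 genes within 1.5-fold included the lymphatic receptor Flt4 (0.22) and von Willebrand factor (Vwf, 0.23), whose other probe was higher. The apelin receptor Aplnr ranged from -2.64 to -1.70 (median -2.21) against -4.03 to -3.06 (median -3.74), without overlap, at 1.42 ± 0.20 (adjusted p = 1.7e-07). Sox18, Nos3 and Emcn were 1.23 ± 0.19, 0.85 ± 0.22 and 0.81 ± 0.15 higher. Kdr, the receptor of VEGF, was 0.67 ± 0.17 higher, but at 0.58 fell just under 1.5-fold without BAM replicate 2 or 8 at 30 days. Eng was 0.64 ± 0.19 higher, a call lost when any 1 of 8 arrays was left out (adjusted p up to 0.0209). In BAM at 7 days 14 of the 22 genes were higher than in BAM at 30 days (6.73% of all named genes). In BAM+ASCs 6 were lower than in BAM at 7 days (5.07% of all named genes). The mean level of the list was -0.71 ± 0.19 with ASCs at 7 days, -1.14 ± 0.15 in BAM at 30 days and -0.23 ± 0.18 in BAM at 7 days (SD, n = 8 each).

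Among 18 surface markers of stromal cells, which include those by which ASCs are recognized, 5 were lower and none was higher. Over all named genes 6.74% were lower and 4.43% higher. Pi16, a marker of adventitial fibroblasts, was at -1.23 ± 0.29 on 1 of its 2 probes, Dpp4 at -1.14 ± 0.27, Vcam1 at -0.95 ± 0.21 and Cd44 at -0.66 ± 0.15, the last on 1 of 4 probes and under 1.5-fold after quantile normalization (-0.56) and normexp background correction (-0.54). Cd34 fell by 0.76 (SE 0.21), and its call was lost under both of these settings (adjusted p = 0.0232 and 0.0514) and without BAM+ASCs replicate 7 or 8 (adjusted p = 0.0108 and 0.012). Thy1 was 0.47 ± 0.17 from day 30 (adjusted p = 0.0291). Of 15 adipocyte genes Cidea (-1.45 ± 0.31) and the lipase Pnpla2 (-0.65 ± 0.15) were lower, Cidea on 1 of 2 probes and Pnpla2 not without BAM+ASCs replicate 3 (-0.53). The neuregulin receptor Erbb3 (-0.03) and peripherin (Prph, 0.02) lay within 1.5-fold among 21 nerve genes. The neural adhesion molecule Ncam1 was higher at 0.91 ± 0.25, not without BAM+ASCs replicate 3 (0.84, adjusted p = 0.0115), and Pmp22 was lower at -0.68 ± 0.19, a call lost when any 1 of 5 arrays was left out (adjusted p up to 0.0197).

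Other genes with the largest falls belonged to detoxification or were of varied function. Aldh3a1, an aldehyde dehydrogenase, ranged from -4.37 to -2.12 (median -3.25) in BAM+ASCs at 7 days and from -1.11 to 1.27 (median -0.32) in BAM at 30 days. It fell by 2.96 (SE 0.31, adjusted p = 5.5e-11), with no overlap. Cyp1a1, a cytochrome P450 induced through the aryl hydrocarbon receptor, as Aldh3a1 can be, fell by 2.67 (SE 0.65, adjusted p = 0.00107), with 2 seeded arrays inside the unseeded range. Both were low in BAM at 7 days too (means of -3.25 and -4.93). Spmap2 (-2.80 ± 0.23), Ceacam19 (-2.52 ± 0.49) and the olfactory receptor Or10ag57 (-2.24 ± 0.32) fell as well, but BAM at 7 days differed from day 30 by 0.04, -0.00 and 0.53. From BAM at 7 days BAM+ASCs differed by -2.84, -2.51 and -2.77 for these 3 genes (adjusted p = 4.1e-14, 0.000118 and 1.5e-09). Of probes well above background on all 8 arrays of one group and on none of the other, 18 were seen with ASCs only and 14 without only. Col26a1 was at least 2.98-fold higher, and Prl5a2, Tmem72 and Spaca4 were at least 7.33-fold, 5.97-fold and 2.65-fold lower in BAM+ASCs at 7 days (adjusted p from 2.2e-07 to 6.1e-06).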

How the data were processed

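The authors hybridised total RNA of the reconstructed wall of 1 rat per array on 1-color Agilent SurePrint G3 rat arrays, and deposited spot intensities extracted with Agilent Feature Extraction 12.0.1.1. The deposited value table mostly held the same processed signals. For BAM+ASCs replicates 2, 3 and 4 at 7 days it held the signal error instead. For BAM replicate 1 at 180 days it was empty at 24873 gene spots. Scanner intensities were therefore used throughout. The members and gene lists were chosen with earlier results of these data known.

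After control spots and spots flagged as outliers were left out, processed signals were converted to log2, reduced by the 75th percentile of each array over gene spots, and averaged per probe. Of 30367 gene probes, 20680 were well above background on all 8 arrays of at least 1 of both groups and were tested. Accessions of 18758 probes were matched to RefSeq symbols (15715 genes), and the brightest probe over the 16 arrays stood for a gene. Group means of all 64 arrays were fitted in limma 3.58.1 (R 4.3.3) with moderated variances and Benjamini-Hochberg adjustment over all tested probes. The study's methods used a two-way ANOVA, run here as an alternative. DEGs are probes past both limits of the study, 1.5-fold and an adjusted p of 0.01. Where a probe was not well above background on any array of a group, a bound is given: the mean of the other group against the lowest signal of any probe well above background on each array, or the probe's own where higher. Python 3.11.15 with pandas 2.3.3, numpy 2.4.6, scipy 1.17.1 and matplotlib 3.10.9 gave summaries and plots. The fit was tested on simulated data.

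Named genes were the 10 largest rises and the 10 largest falls among genes well above background and unsaturated on all 16 arrays, in each list the largest rise, the largest fall and the first tested gene, and the 3 largest bounds in each direction. Other list members were named to say which genes had moved or lay within 1.5-fold. Alternatives were other scalings, background corrections, filters, thresholds, sets of arrays, and each of the 16 arrays left out in turn. Arrays carry no read depth, and their number limits the precision: the median SE of a difference was 0.17. The results of a few genes are not reported here.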

Additional observations from a re-analysis of the deposited data

Results flagged for a closer look

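Arrays that stood apart from the other 7 of their group were looked for with Dixon's ratio at the 95% level over 178 gene groups (89 genes in 2 groups) and 72 list groups, of which chance alone marks about 1 in 20. There were 17 genes and 7 lists with such an array, and what sets these arrays apart was not tested.

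BAM replicate 7 at 30 days was the most frequent. It was above its group for S100a8 (0.73 against -2.59 to -1.29), S100a9 (1.32 against -1.96 to -0.60), Il1r2 (0.35 against -3.09 to -1.63), Cxcr2 (-2.56 against -5.01 to -4.22) and Np4 (-3.06 against -8.24 to -6.42). The mean level of its neutrophil list was -1.25 against -2.81 to -2.41, and that of its B cell list was 0.62 against -1.73 to -0.63. Ccn5 was low on this array (-0.92 against 0.15 to 1.07). The saturated genes Col1a1 (6.01), Rpl10 (6.11) and Actb (6.00) and the ribosomal list (5.64) were high on it. Saturated spots share 1 ceiling of raw signal, and this array had the lowest 75th percentile of signal.

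BAM+ASCs replicate 3 at 7 days was low for the uroplakin Upk3a (3.89 against 5.15 to 5.71), for E-cadherin Cdh1 (1.77 against 2.48 to 2.98) and for the mitochondrial list (2.73 against 2.84 to 2.87). It was high for Col11a1 (1.19 against -1.16 to -0.16), Lum (2.95 against 2.12 to 2.27) and Igf1 (5.70 against 5.02 to 5.29). BAM+ASCs replicate 8 was low for Kcnma1 (-3.13 against -2.59 to -2.19) and Il11 (-3.48 against -3.08 to -2.91). BAM+ASCs replicate 2 had high mean levels of hypoxia and glycolysis genes (1.60 against 1.27 to 1.43) and of matrix metalloproteinases (0.51 against 0.14 to 0.31). BAM replicate 1 at 30 days was high for Cxcl1 (1.06 against -2.03 to -0.72) and for growth factors (-0.98 against -1.59 to -1.33).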

How the results depend on the processing

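Of the 2485 DEGs (751 higher, 1734 lower), 1053 passed a 2-fold threshold (308 higher, 745 lower). Normexp background correction gave 1656 DEGs, 1117 of them lower, and quantile normalization gave 1045 lower ones. With the 75th percentile taken over detected probes 38.9% of DEGs were higher, in place of 30.2%. Leaving out each of the 16 arrays in turn gave 2237 to 2469 DEGs (669 to 760 higher, 1551 to 1728 lower). It also gave 8513 to 8671 probes within 1.5-fold, saturated probes included, against 8894. Such probes numbered 12568 after normexp background correction, 11596 from the 16 arrays alone and 10167 from the 32 arrays of 7 and 30 days. They numbered 8360 after quantile normalization and 7784 from the deposited value table without its columns of signal error. The other alternatives kept the counts within 1.5 times, among them 3594 DEGs from the 16 arrays alone and 2265 from the deposited value table, which gave 1967 without the columns of signal error, an alternative chosen after seeing the data. The replicate numbers of the labels did not pair the arrays: 3 of 8 same-numbered pairs had deviations that correlated over 0.1, and 2 of 8 arrays correlated best with their own number. With the replicate number as a block there were 751 higher and 1724 lower DEGs, 2475 in all, and 8943 probes within 1.5-fold. No named gene and no list median changed direction as a called value under the alternatives run, and 27 of the 89 named genes lost their call in at least 1 of them. The median of the mitochondrial list went from -0.12 to -0.02 under quantile normalization. The causes were not tested.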
